A study of Mus musculus with 10 samples.

Results

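The genes described here lie on mouse chromosome 8. A gene was a member when the array's annotation gave a probe set this gene alone and RefSeq placed it on that chromosome, and the brightest probe set stood for the gene. Of 955 such genes, 27 fixed by name, such as the lipase Lpl and the insulin receptor gene Insr, were left out. The remaining 928 of 19937 genes on the arrays were kept, and 824 of them passed a filter on dim signal. Of the 928 members, 879 are protein coding.

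Gene dosage is the number of copies of a gene in a cell. When a whole chromosome or a long stretch of it is gained or lost, the RNA of many genes in the stretch tends to shift together by a small step, because each extra copy can be transcribed. Established fibroblast lines such as the 3T3 lines have abnormal chromosome sets, and subclones can differ in them. The arrays measured RNA and not DNA, so copy number was not measured here and its part in any result was not tested.

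RNA came from 10 clonal lines of 3T3-L1, a mouse embryonic fibroblast line whose preadipocytes can be turned into fat cells with insulin, dexamethasone and the phosphodiesterase inhibitor IBMX. Lines had been classed by the triglyceride they stored after that cocktail, with 5 Low and 5 High lines for potential to form fat cells. All lines shared the treatment-free state sampled here, proliferating pre-confluent cells in DMEM with serum, before any cocktail. Each line is 1 clone and 1 array, so p-values measure the spread between separately grown clones, which holds technical variation too. The lines are called Low 1 to Low 5 and High 1 to High 5 in the order of their records, and these numbers pair nothing. The Low lines are the clones 1E7, 2D7, 2F1, 4D11 and 4H4 and the High lines the clones 3F4, 4D2, 4E3, 5C4 and 5D4. All values are log2 intensities of bulk RNA, in which a shift in all cells and a larger shift in some of them cannot be told apart.

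The 10 arrays were alike over all genes, with medians between 7.74 and 7.84 and a lowest correlation of 0.982 between any pair. The labelled cell type was borne out by its markers. All 7 fibroblast and preadipocyte markers passed the filter, with the collagen gene Col1a1 between 12.38 and 12.79 and the preadipocyte marker Dlk1 between 13.76 and 13.94. Of 13 markers of mature adipocytes, endothelium, leukocytes and epithelium, 9 passed it, none above 9.04, and the adipocyte hormone gene Adipoq (5.71 to 6.08) and the leukocyte gene Ptprc (at most 6.15) did not.

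The 3 members with the smallest p-values in the comparison of the classes all lie near the end of the chromosome in gene order. Their upstream bases are shown so that these genes can be compared at their starts. They are taken from RefSeq's GRCm38.p6 and cover the 250 bases before each gene's start, written 5′ to 3′ on the gene's strand. Rbm34, an RNA-binding protein gene, has chr8:126971050-126971299 on the minus strand. Nup133, a scaffold gene of the nuclear pore, has chr8:123949266-123949515 on the minus strand. Afg3l1, a mitochondrial protease subunit gene, has chr8:123477612-123477861 on the plus strand. Capitals mark matches on either strand to the core of the cyclic AMP response element (TGACGT), the ETS factor site CCGGAAG or the GC box GGGCGG.
Rbm34: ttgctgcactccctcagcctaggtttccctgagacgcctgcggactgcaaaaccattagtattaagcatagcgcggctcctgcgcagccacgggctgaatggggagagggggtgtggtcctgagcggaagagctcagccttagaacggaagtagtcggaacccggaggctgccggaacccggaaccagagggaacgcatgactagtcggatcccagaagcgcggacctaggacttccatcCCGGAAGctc
Nup133: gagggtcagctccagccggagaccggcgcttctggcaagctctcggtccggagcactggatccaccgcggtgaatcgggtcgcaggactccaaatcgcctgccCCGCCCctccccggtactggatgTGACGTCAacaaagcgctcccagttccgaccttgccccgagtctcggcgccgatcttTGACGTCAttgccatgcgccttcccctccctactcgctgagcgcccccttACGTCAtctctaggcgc
Afg3l1: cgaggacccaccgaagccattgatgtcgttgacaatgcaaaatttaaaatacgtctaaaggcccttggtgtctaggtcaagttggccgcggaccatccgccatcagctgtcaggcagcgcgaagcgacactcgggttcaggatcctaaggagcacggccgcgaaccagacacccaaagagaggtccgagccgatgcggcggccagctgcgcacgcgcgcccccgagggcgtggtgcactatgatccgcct
The Rbm34 bases held 1 match to the ETS site, those of Nup133 held 5 matches to the cyclic AMP element core and 1 to the GC box, and those of Afg3l1 held none of these letters. The core matches of Nup133 include palindromes, which count on both strands. Their GC contents were 60.4%, 65.2% and 60.8%. Over 27025 promoters of the same length, 6.56% held TGACGT, 7.05% held CCGGAAG and 32.9% held GGGCGG. Among the 570 members with a promoter entry the shares were 8.60%, 14.2% and 53.7%, against 9.02%, 11.2% and 53.0% over the 12871 tested genes with one.

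Signal from chromosome 8 was set apart line by line, before any use of the classes. A line's level is the median over the 928 members of its deviation from each gene's mean over the 10 lines, less the same median over genes of the other chromosomes. Low 2 stood highest at 0.084, followed by Low 3 at 0.047, Low 4 at 0.047 and Low 5 at 0.032. High 5 stood lowest at -0.054, followed by High 3 at -0.049, Low 1 at -0.044 and High 2 at -0.037. High 1 at -0.006 and High 4 at -0.022 lay between these sets. The classes overlapped in this order through Low 1 alone, which lay among the lowest lines. The mean level was 0.033 ± 0.047 (SD, n = 5) in Low lines and -0.033 ± 0.020 (SD, n = 5) in High lines, and the whole span from the lowest to the highest line was 1.10-fold.

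The levels were also read as the share of members on each side, without a split by brightness. In Low 2, 72.8% of the 824 tested members lay above the median deviation of the other chromosomes, where 52.6% of all tested genes did. In Low 3 the share was 71.0% (51% of all genes), in Low 4 66.6% (51.5%) and in Low 5 62.3% (53.1%). In High 5 only 26.3% of members lay above it (49.9% of all genes), in High 3 28.9% (51.3%), in Low 1 34.5% (48.2%) and in High 2 35.6% (50.3%). High 1 at 47.6% (49.2%) and High 4 at 42.7% (45.8%) were close to the share of all genes.

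The separation of lines grew with signal. The tested members were divided into 3 sets by mean intensity at 8.19 and 10.43. In the bright set, of 275 members, Low 2 reached 0.133, Low 4 0.099, Low 3 0.089 and Low 5 0.038, whereas High 5 lay at -0.115, High 3 at -0.100, Low 1 at -0.083 and High 2 at -0.076, a span of 1.19-fold. High 1 at -0.005 and High 4 at 0.005 stayed near 0. In the dim set, also of 275 members, all 10 lines lay within 0.0226 of each other, and the order of the lines was not readable. The part of background signal in this was not tested.

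**Figure D1:**
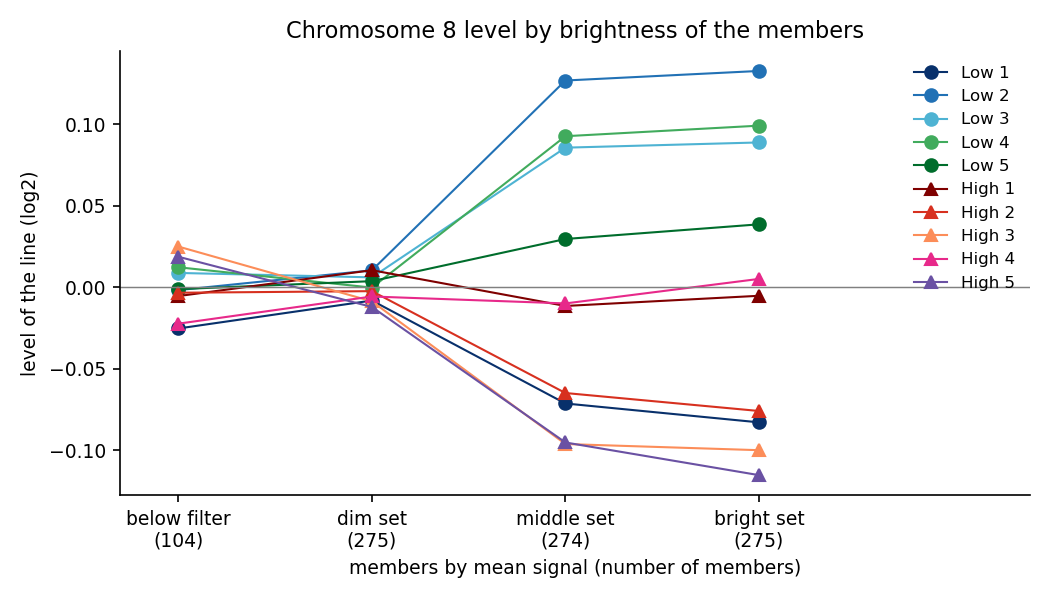
Level of chromosome 8 (log2, relative to genes of other chromosomes) in each of the 10 lines, for the 104 members below the filter and for 3 sets of the 824 tested members by mean signal; circles are Low and triangles High lines. Lines lie within 0.0226 of each other in the dim set and spread from -0.115 to 0.133 in the bright set.

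The deviation from gene means also followed brightness over the other chromosomes, and unequally by line. The correlation with brightness across those genes, which share each array, was -0.374 in High 4, 0.251 in High 3 and 0.235 in Low 5, and nearer 0 in the other lines. With each array's trend taken off, the level of High 4 moved from -0.022 to 0.0019, that of High 3 from -0.049 to -0.064 and that of Low 2 from 0.084 to 0.072, and that of Low 1 from -0.044 to -0.045.

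Chromosome 8 was not alone in standing apart. Over tested genes, the span between the lowest and the highest line was 0.157 for chromosome 8, which ranked 5th of the 20 chromosomes compared. Chromosome 6 had the widest span, 0.260, where Low 2 lay at -0.127 and High 3 at 0.133. In the difference between class means, chromosome 8 at -0.077 ranked 2nd in size after chromosome 12 at -0.107. All chromosomes were read on the same 10 arrays. The lines that were low differed between them: Low 1 was among the lowest lines on chromosome 8 at -0.045 and was the highest line on chromosome 12 at 0.099, and Low 2 was highest on chromosome 8 at 0.092 and at -0.033 on chromosome 12.

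**Figure D2:**
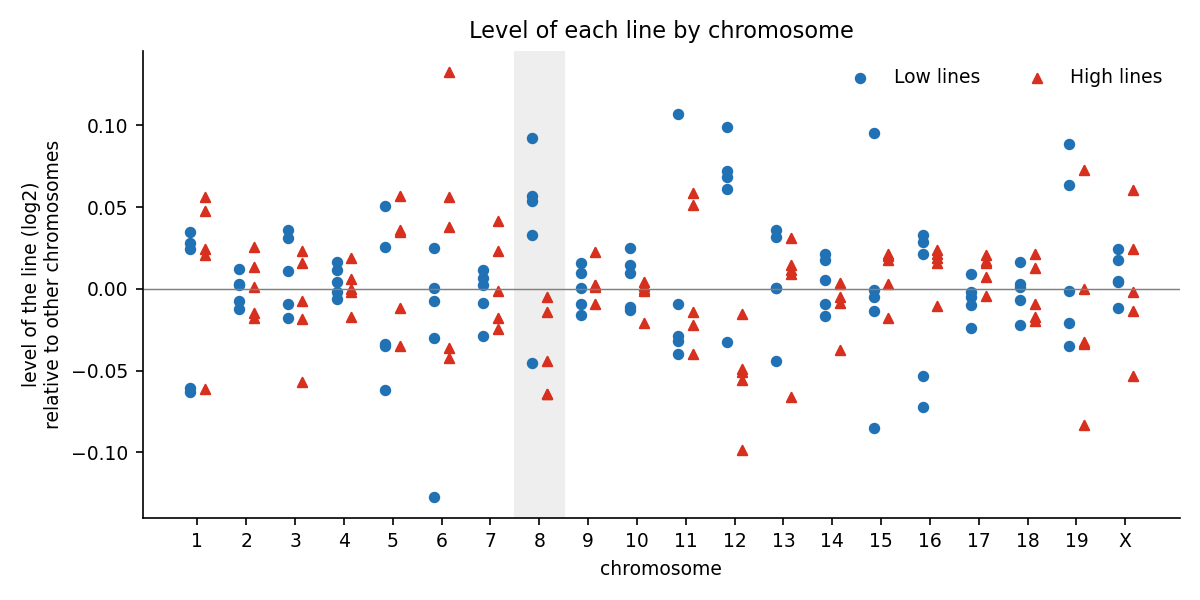
Level of each line (log2, median deviation of tested genes from the gene mean less that of all other chromosomes) for 20 chromosomes; circles are the 5 Low lines, triangles the 5 High lines, and chromosome 8 is shaded. On chromosome 8, 4 Low lines lie between 0.033 and 0.092, and all 5 High lines and Low 1 lie below 0.

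Position along the chromosome was examined in gene order, with no coordinates, through a running median over 51 members and through 10 blocks of 92 or 93 members. The running median of High 3 was below 0 at 100% of 878 positions, that of High 5 at 99.9%, that of High 2 at 98.9% and that of Low 1 at 91.6%. It was above 0 at 100% of positions in Low 3 and at 96.6% in Low 2. Stretches beyond 0.15 on either side occurred in Low 2 and in no other line. The first held 8 members from Adgra2, a receptor gene of the adhesion family, to the nicotinic receptor gene Chrna6, with a peak of 0.173. The second held 12 members from the phosphatase gene Phlpp2 to the splicing factor gene Sf3b3, with a peak of 0.163. These 20 positions depend on the window and the threshold: 93 positions passed with a window of 25 members and 0 with 75. Over 25 of the 606 brighter members described below, 0.15 was passed in other lines too. Extremes were -0.213 in Low 1, 0.174 in Low 3, 0.179 in Low 4 and 0.151 in Low 5. In High 2 to 5 they were -0.151, -0.152, -0.184 and -0.186, and High 1 stayed between -0.083 and 0.093.

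The first and last tested genes of these stretches show how small the step is gene by gene. Sf3b3 read 12.68, 12.95, 12.88, 12.97 and 12.79 in Low 1 to 5 and 12.71, 12.76, 12.70, 12.76 and 12.58 in High 1 to 5. Low 2 was exceeded by Low 4 and the classes overlapped through Low 1. Adgra2 was highest in Low 2 at 11.81, with the other lines between 11.03 and 11.64. Phlpp2 read 10.31 in Low 2, below 10.44 in Low 4 and 10.40 in High 4. Chrnb3, a nicotinic receptor subunit gene with dim signal and the last tested member before Chrna6, which did not pass the filter, lay between 6.32 and 6.73 in all 10 lines.

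Several lines changed side along the chromosome. High 4 lay at 0.030 in block 1 and at -0.084 in block 4, and Low 5 at -0.027 in block 1 and at 0.070 in block 4. Without each array's brightness trend, these values were 0.022 and -0.032 in High 4 and -0.020 and 0.053 in Low 5. High 1 stayed near 0 with either sign. Low 1 was negative in each of the first 9 blocks, from -0.018 to -0.088, and lay at 0.052 in block 10, which runs from the ubiquitin ligase subunit gene Fbxo31 to Ccdc7a. In block 10 the other Low lines lay at 0.070, 0.056, 0.075 and 0.034, and High 1 to 5 at -0.020, -0.060, -0.084, -0.044 and -0.067. This was the only block in which all High lines lay below all Low lines. The class means there were 0.057 ± 0.016 and -0.055 ± 0.024 (SD, n = 5 each). With the brightness trend taken off, High 4 stood at 0.030 in block 10, above Low 1 at 0.028 and Low 5 at 0.008, so that the classes no longer separated.

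The change of side was sharper in brighter members. Among the 606 members above the array median in at least 5 arrays, Low 1 lay at -0.079 over the 537 in the first 9 blocks and at 0.061 over the 69 in block 10, a step of 0.14. This division was placed after the order along the chromosome was seen, so it does not set Low 1 apart from lines that shift elsewhere, such as High 4, which went from 0.052 in block 1 to -0.064 in block 4 among these brighter members. In Low 1, 23.6% of the 537 members and 66.7% of the 69 lay above the median of the other chromosomes. With a running median over 25 of these members, a setting added after the data were seen, Low 1 crossed 0 at Klhl36, just before the deubiquitinase gene Usp10, and stayed above it to the end. It had crossed briefly near Ppp2cb, a phosphatase subunit gene. The crossing at Klhl36 lay at rank 823 of 928, and with the window of 51 over all members at rank 830. In High 5, by contrast, 5.80% of the 69 members of block 10 lay above the median, against 21.6% of the 537 before it.

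**Figure D3:**
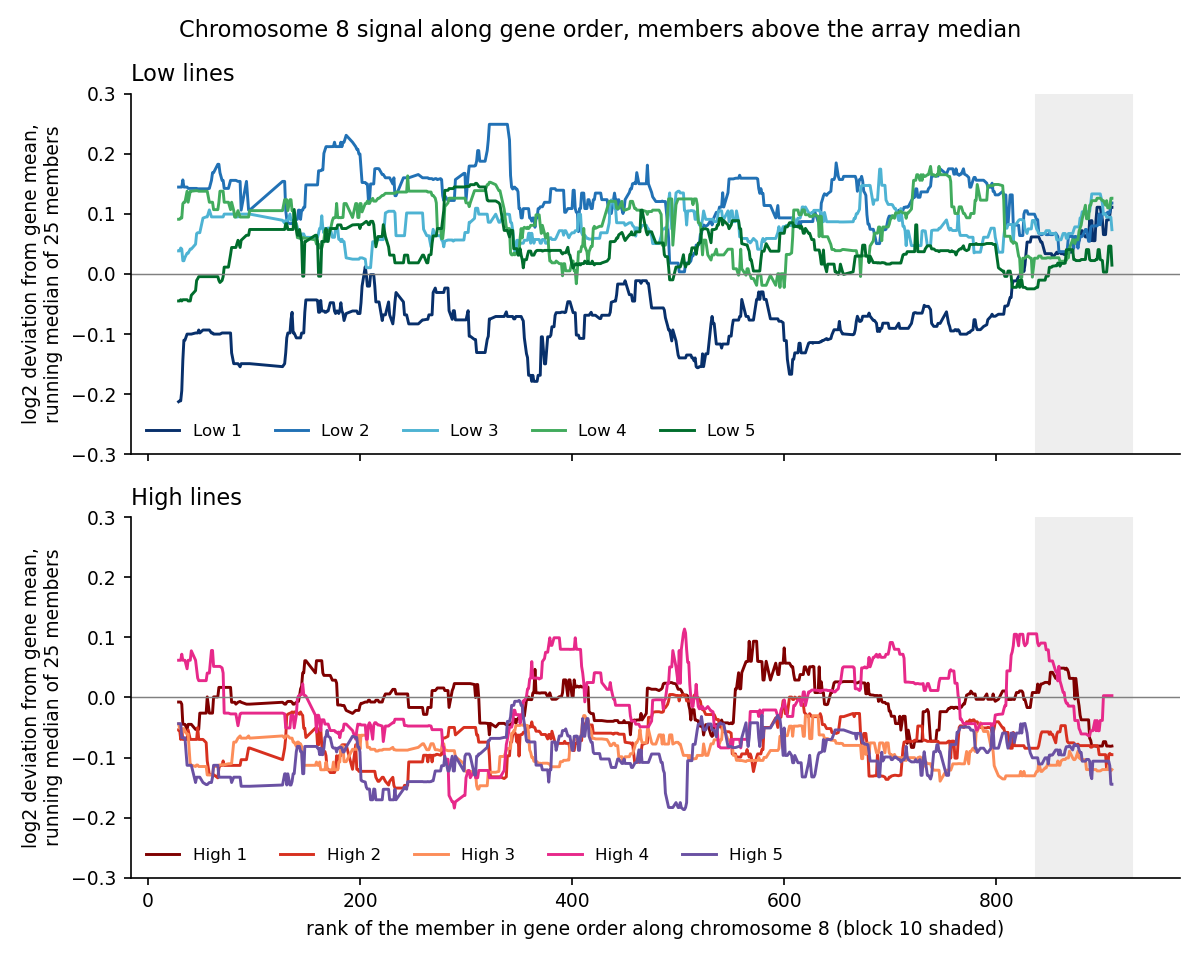
Running median over 25 members of the log2 deviation from the gene mean, less each line's median over other chromosomes, against rank in gene order, for the 606 brighter members; upper panel Low lines, lower panel High lines, block 10 shaded. Low 1 lies below 0 along most of the chromosome and joins the other Low lines past rank 823, while High 3 and High 5 stay below 0 throughout.

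Members resembled each other across lines at all distances in gene order, and most when adjacent. Likeness also fell with distance on the other chromosomes, and their mean lay below that of chromosome 8 at each distance. The mean correlation over the 10 lines between adjacent tested members was 0.241 over 823 pairs, against 0.166 on the other chromosomes. At a distance of 11 to 50 members it was 0.190 against 0.091, and at 101 to 823 members 0.173 against 0.077. On chromosome 6 the values at these 3 distances were 0.243, 0.184 and 0.164, and on chromosome 12 0.211, 0.155 and 0.125. The pairs share arrays and members, and the values are a description.

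The design compares High with Low lines, and asks which genes differ before differentiation begins. In limma's test, 169 of 824 members (20.5%) were lower in High lines at an unadjusted p under 0.05, where 4.79% of all tested genes were, and 9 (1.09%) were higher, where 3.16% of all genes were. On chromosome 12 the shares by the same rule were 29.4% lower and 0.917% higher. After Benjamini and Hochberg's adjustment over 16339 genes, 0 members passed 0.05, where 0.00612% of all genes passed, and the smallest adjusted p was 0.243. No single member therefore passed as changed. The median difference, High minus Low, was -0.071 over members and 0.021 over all tested genes, and 554 members (67.2%, against 42% of all genes) had a negative difference. All 5 High lines lay below all 5 Low lines for 46 members (5.58%, against 1.04% of all genes) and above them for 1 (0.121%, against 0.526%), the dipeptidase gene Dpep3. The 27 genes left out had a median of -0.138, and by the same unadjusted threshold 6 were lower and 0 higher.

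These counts mix members that share a line's level, so they are not 169 separate observations. Clones were also blocked by the first digit of their names, which leaves only 4 lines informative. In that fit, 80 members (9.71%, against 2.44% of all genes) were lower and 0 (against 1.7% of all genes) higher. By brightness, 3 of 275 dim, 82 of 274 middle and 84 of 275 bright members were lower. The share of all genes was not counted in these sets, so these counts cannot be read as a result about the members. Under the stricter filter, which keeps genes above the array median, 165 of 606 members (27.2%) were lower, against 6.47% of all genes. The medians were 0.043, -0.123 and -0.136 in these sets, and 0.055, -0.003 and -0.009 over the other chromosomes, and the median was -0.122 over members under the stricter filter and -0.046 over all members with no filter. In an alternative added after the data were seen, each line's level was taken off all members. Then 77 members (9.34%, against 4.24% of all genes) were lower and 60 (7.28%, against 3.49%) higher. The median was then -0.0046, against 0.023 over all tested genes. The setting draws members towards the other chromosomes by construction. The level taken off differed by -0.067 between class means, High minus Low. That of the dim set differed by -0.006, that of the middle set by -0.108 and that of the bright set by -0.113. Dim members were thus raised in High lines by the setting, and brighter members kept part of their difference. Neither the count of 60 nor that of 77 can be read as a result about the members. By block, the share of tested members that were lower ran from 12.6% in block 7 to 31.1% in block 10, where 28 of 90 were lower and 16 had all High lines below all Low lines. Block 1 held 12 lower and 3 higher of 82, with a median of 0.019.

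**Figure D4:**
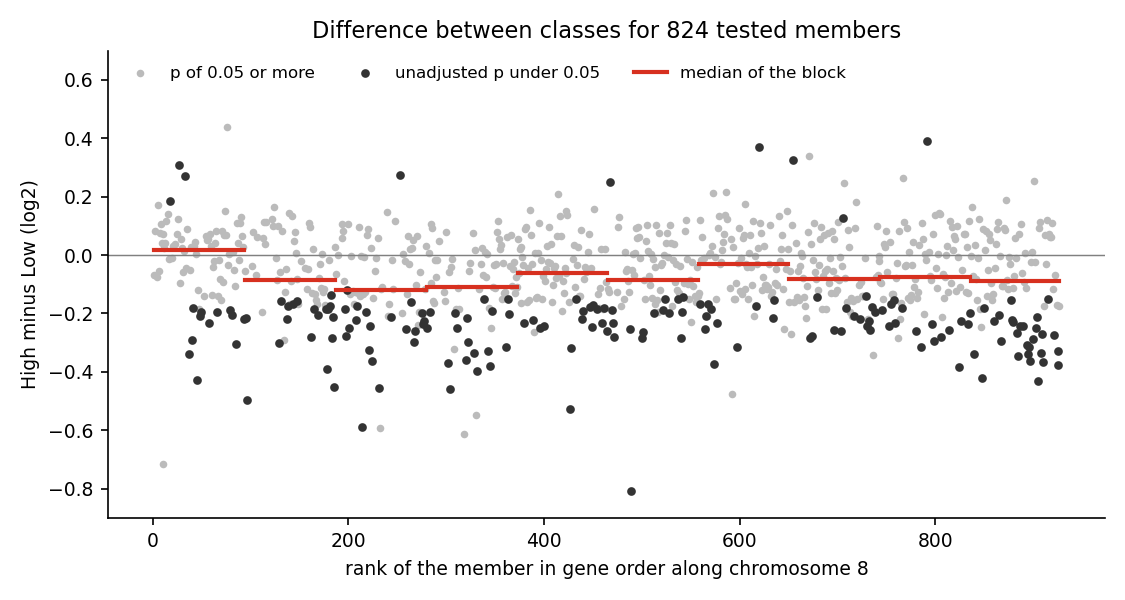
High minus Low difference (log2) of each of the 824 tested members against its rank in gene order; dark points have an unadjusted limma p under 0.05, and red bars are the medians of 10 blocks. Block medians run from -0.118 in block 3 to 0.019 in block 1, and 169 dark points lie below 0 and 9 above.

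Of the 12 named members with the smallest p in the direction lower in High, 7 lay in block 10. That block held 90 of the 824 tested members and 28 of the 169 lower ones. The 12 were chosen by p, so their gaps between classes follow in part from the choice. Rbm34 (Entrez 52202) read 10.62, 10.69, 10.54, 10.66 and 10.64 in Low 1 to 5 and 10.24, 10.40, 10.29, 10.27 and 10.32 in High 1 to 5. The classes did not overlap. The difference was -0.33 (SE 0.06; 1.26-fold; limma, adjusted p = 0.243).

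Nup133 read 11.03, 10.83, 10.97, 10.94 and 10.89 in Low lines and 10.59, 10.70, 10.66, 10.64 and 10.55 in High lines, a gap between classes with Low 1 the highest of all. Its difference was -0.31 (SE 0.06; limma, adjusted p = 0.255). Afg3l1 read 10.72, 10.72, 10.56, 10.52 and 10.55 in Low lines and 10.32, 10.23, 10.26, 10.29 and 10.26 in High lines. Low 1 and Low 2 were the highest and the High lines lay close together, and the difference was -0.34 (SE 0.06; limma, adjusted p = 0.255). In the shown promoters, these 3 genes had no motif of the searched set in common.

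Pard3, a cell polarity scaffold gene, and the Golgi tether gene Cog2 lie in the same block. Pard3 read 9.98, 10.13, 9.98, 10.21 and 9.87 in Low lines and 9.76, 9.59, 9.57, 9.73 and 9.64 in High lines. Cog2 read 10.06, 10.09, 10.02, 9.91 and 10.03 against 9.81, 9.59, 9.76, 9.74 and 9.77. Both kept every High line below every Low line, with differences of -0.38 and -0.29. Arv1, whose product helps move sterols out of the endoplasmic reticulum, read 10.27, 10.19, 10.13, 10.31 and 10.18 in Low lines and 9.49, 9.92, 9.94, 9.90 and 9.66 in High lines, where High 1 and High 5 were the lowest. Sprtn, a protease gene for proteins crosslinked to DNA, read 9.29, 9.60, 9.55, 9.46 and 9.32 against 9.20, 9.10, 9.08, 9.09 and 8.92, with a narrow gap between Low 1 and High 1. The differences were -0.43 for Arv1 and -0.36 for Sprtn.

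The other 5 lay elsewhere on the chromosome, where Low 1 as a line was low. Fto, a gene for an RNA demethylase, had the tightest classes of these 12 genes: 11.20, 11.27, 11.26, 11.31 and 11.26 in Low lines and 11.05, 11.02, 11.03, 11.03 and 11.004 in High lines. The difference of -0.23 (SE 0.05; limma, adjusted p = 0.255) was small in size, 1.18-fold. Low 1 was the lowest Low line and still above all High lines.

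Rab11fip1, which encodes an effector of the recycling endosome GTPase Rab11, read 9.49, 9.79, 9.25, 9.40 and 9.32 in Low lines and 8.98, 8.99, 8.98, 8.96 and 9.08 in High lines. Galnt7, a gene of mucin-type glycosylation, read 10.16, 10.25, 10.30, 10.51 and 10.27 against 10.00, 9.58, 9.78, 9.77 and 10.05. Their differences were -0.45 and -0.46. Usp38, a deubiquitinase gene, differed by -0.28, and Xkr5, a gene of the XK family of membrane proteins, by -0.50, the largest of these 12, with Low lines between 8.88 and 9.53 and High lines between 8.54 and 8.80.

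**Figure D5:**
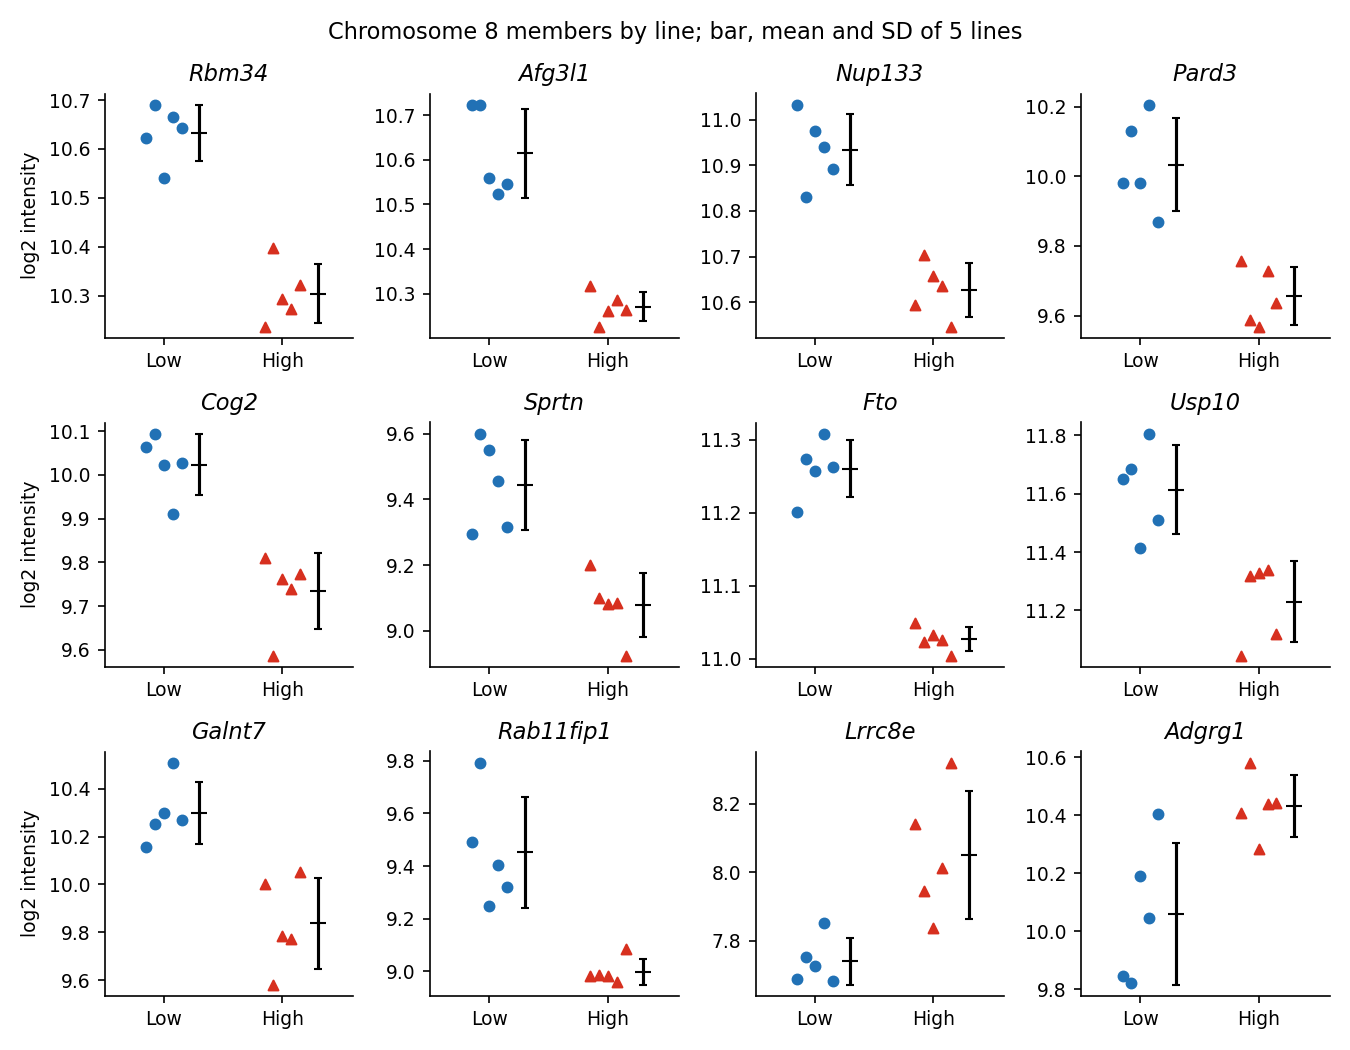
Log2 intensity of 12 named chromosome 8 members in the 5 Low lines (circles) and 5 High lines (triangles); the bar beside each class is its mean and SD (n = 5), and each panel has its own axis. The first 10 genes have all High lines below all Low lines, and Lrrc8e and Adgrg1 have higher means in High lines with 1 or more lines overlapping.

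Against this background, 9 members were higher in High lines, in no block more than 3. This count was 4 without High 1 and 19 without High 3. Adgrg1, an adhesion receptor gene, read 9.84, 9.82, 10.19, 10.05 and 10.40 in Low lines and 10.41, 10.58, 10.28, 10.44 and 10.44 in High lines. Only High 3 lay below the highest Low line. The difference was 0.37 (SE 0.11; limma, adjusted p = 0.396). Lrrc8e, a subunit gene of the volume-regulated anion channel, read 7.69, 7.75, 7.73, 7.85 and 7.68 in Low lines and 8.14, 7.94, 7.84, 8.01 and 8.32 in High lines, with a difference of 0.31 (SE 0.09; limma, adjusted p = 0.364). It lies in block 1.

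The small GTPase gene Rrad differed by 0.32, the metalloprotease-family gene Adam34l by 0.28 (0.17 without High 4, the highest line at 7.12) and Hhip, whose product binds and restrains hedgehog ligands, by 0.25. With clones blocked by the first digit of their names, the direction of Hhip turned, to -0.037, and the differences of Lrrc8e and Adgrg1 were 0.12 and 0.21. In Rrad the Low lines formed 2 sets, 8.32, 8.39 and 8.41 in Low 1, 3 and 4 and 9.01 and 8.85 in Low 2 and 5, against 8.80 in the lowest and 9.001 in the highest High line. In Dpep3 the Low lines lay between 6.92 and 7.05 and the High lines between 7.08 and 7.18, and the difference of 0.13 was 0.073 with the brightness trend taken off. Hhip, Adam34l and Dpep3 were all dim, with no line above 7.18.

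Members were also counted by function, and lists of genes for basic cell upkeep held the most negative medians. The lists are read against the 20.5% of all tested members that were lower, and 0 of any list passed the adjusted threshold. That share includes dim members, of which 3 of 275 were lower. Of middle and bright members, 82 of 274 and 84 of 275 were lower, with medians of -0.123 and -0.136. The ubiquitin, traffic and mitochondrial lists below lay near these values. The lists were not matched for brightness, and the shares of all genes by brightness were not counted. Of 37 tested genes for DNA replication, repair, chromatin and cell division, 17 were lower at an unadjusted p under 0.05, 0 were higher and all 37 had a negative difference, with a median of -0.168. Of 28 genes for RNA processing and translation, 11 were lower, 0 higher and 28 negative, with a median of -0.151. The ubiquitin and proteasome list had 7 of 20 lower and a median of -0.137, and the list of nuclear pore, vesicle and endosome traffic had 8 of 25 and -0.134. In the mitochondrial list 7 of 25 were lower with a median of -0.115.

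Within these lists, Taf5l, a gene of a histone acetyltransferase complex, read 10.42, 10.23, 10.30, 10.58 and 10.50 in Low lines and 10.04, 10.20, 10.12, 10.10 and 10.00 in High lines. The classes did not overlap, and the difference was -0.31 (SE 0.08; limma, adjusted p = 0.277). Lig4, the ligase gene of double-strand break joining, read 10.01 to 10.21 in Low lines and 9.69 to 10.04 in High lines, overlapping by High 4 alone. Urb2, a ribosome assembly gene, read 12.08, 12.05, 12.11, 12.43 and 12.11 against 11.66, 11.88, 11.70, 12.08 and 11.64. Usp10 read 11.65, 11.68, 11.42, 11.81 and 11.51 against 11.05, 11.32, 11.33, 11.34 and 11.12, without overlap, and differed by -0.38. Usp10 lies where Low 1 changed side.

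Other lists were nearer the middle of the chromosome's distribution. The stress and redox list had 3 of 21 lower with a median of -0.090, the lipid, sterol and amino acid list 4 of 26 lower and 1 higher (the ceramide synthase gene Cers4) with -0.058, and the adhesion, cytoskeleton and matrix list 4 of 32 lower with -0.050. In the stress list, Dusp4, a gene for a phosphatase of MAP kinases, read 11.11, 10.23, 10.65, 11.01 and 10.68 in Low lines and 9.75, 10.10, 10.29, 10.37 and 10.21 in High lines. Low 2, the line with the highest chromosome level, was the lowest Low line for it. Its difference of -0.59 (SE 0.16; limma, adjusted p = 0.344) was among the 7 members beyond 0.5 in size. Hmox1, the heme oxygenase gene of the oxidative stress response, differed by -0.25, with Low 1 at 11.41 among the High lines, which lay between 11.33 and 11.60.

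Among lipid genes, Agpat5, an acyltransferase gene of phospholipid synthesis, read 10.28, 10.30, 10.43, 10.45 and 10.45 in Low lines and 10.13, 10.27, 10.12, 10.20 and 10.10 in High lines. The classes were apart by little, at High 2 and Low 1, and the difference was -0.22. Msmo1, a sterol synthesis gene, was highest in Low 1 at 13.10, with the other Low lines between 12.69 and 12.96 and the High lines between 12.65 and 12.74. Its difference was -0.21. Cpe, a peptide-processing carboxypeptidase gene, was highest in Low 2 at 12.53, and Low 1, at 11.81, lay within the High lines (11.56 to 11.91).

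The 17 tested genes of other cell types had 0 lower and 0 higher and a median of 0.042, close to the 0.043 of dim members. Irf8, a myeloid transcription factor gene, lay between 7.40 and 7.84 in all lines, and Hp, the haptoglobin gene of liver, between 6.71 and 7.18. Neither class stood apart for either gene. The brightness of a list was not matched in these comparisons, and its part in the difference between lists was not tested.

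The members with the widest spread over lines each had an order of lines of their own. Ces2g, a carboxylesterase gene, read 7.66, 7.21, 7.90, 6.72 and 10.29 in Low lines and 8.60, 8.27, 7.34, 7.29 and 7.51 in High lines, with Low 5 far above the rest. Sorbs2, an adaptor gene of the actin cytoskeleton, read 7.43, 10.16, 8.12, 7.76 and 7.15 against 7.97, 8.78, 8.16, 7.997 and 7.04, with Low 2 the highest. Their class differences of -0.15 (SE 0.55) and -0.13 (SE 0.50) were smaller than their errors, and that of Ces2g was 0.43 without Low 5 and that of Sorbs2 0.38 without Low 2.

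Zdhhc2, a palmitoyltransferase gene, read 9.52, 11.33, 10.27, 11.29 and 9.75 in Low lines and 10.27, 8.71, 9.63, 9.82 and 10.77 in High lines, with Low 2 and Low 4 highest and High 2 lowest. Its difference of -0.59 was -0.37 without Low 2, -0.38 without Low 4 and -0.31 without High 2. Tll1, a gene for a metalloprotease that processes matrix proteins, was highest in Low 4 at 10.97 and lowest in High 1 at 8.83, and its difference of -0.61 was -0.37 without Low 4. Adgre5, the gene of the adhesion receptor CD97, read 7.13, 6.54, 8.01, 6.80 and 8.59 in Low lines and 6.78, 6.60, 6.43, 6.73 and 6.48 in High lines. Low 3 and Low 5 stood high, and its difference of -0.81 (SE 0.32; 1.75-fold; limma, adjusted p = 0.559) was the most negative of all members but moved to -0.51 without Low 5.

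The probe sets that were not chosen had a like median. Among tested members, 39 had further probe sets, 54 in all, of which 41 had the sign of the chosen one. Their median difference was -0.082, and that of the chosen probe sets was -0.082.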

How the data were processed

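Total RNA of 10 lines was read on Affymetrix whole-transcript arrays after biotin labelling, per the labels' protocols. The deposited values are log2 intensities, 1 per array and probe set, made by the authors with RMA, per the submitters' processing notes; the sources used here name no version, setting or genome build. RMA draws arrays towards a common distribution, so differences of level shared by most genes are removed. Arrays have no counting depth, and the number of lines limits the precision.

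Of 34760 probe sets, 21640 carried 1 symbol, 1321 several and 11799 none in the annotation used. RefSeq (GRCm38.p6) matched 21553 and gave chromosome and gene order, and 83 genes had no place. A gene was tested when 5 or more arrays read it above their own 25th percentile, which kept 16339 genes. Tests were limma 3.58.1 (lmFit, eBayes, two-sided, R 4.3.3), with Benjamini-Hochberg adjustment over all tested genes, and were checked on simulated data. Plots came from matplotlib 3.10.9 and tables from pandas 2.3.3 with numpy 2.4.6 under Python 3.11.15. Named genes were the 12 lower and 6 higher members with the smallest p, the 2 of each list with the smallest p, the 5 with the widest range and the ends of runs, skipping predicted transcripts. The members and lists were chosen with earlier results of these data known. Alternatives covered normalization, brightness, filter, probe sets, variance, weights, clone name and each line left out.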

Additional observations from a re-analysis of the deposited data

Results flagged for a closer look

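Of 98 sets of 5 lines examined, 6 held a line apart from the other 4 of its class by Dixon's criterion, where chance flags about 1 in 20, or 4.9. Among Low lines, Low 1 was apart as the lowest in block 2 (-0.018, others 0.028 to 0.044), block 6 (-0.068, others 0.034 to 0.069), block 7 (-0.088, others 0.030 to 0.062) and block 8 (-0.073, others 0.056 to 0.095). These blocks share a line and are not independent. Urb2 in Low 4, at 12.43, was above the other Low lines at 12.05 to 12.11. Rab11fip1 in High 5, at 9.08, was above the other High lines at 8.96 to 8.99.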

How the results depend on the processing

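Against 169 lower members, the count was 80 (9.71%, against 2.44% of all genes) when clones were blocked by the first digit of their names. Only names with a 4 occur in both classes. The count was 77 with each line's level taken off and 237 (28.8%, against 7.27%) with arrays centred on their medians. With a line left out it ran from 130 (without Low 2) to 217 (without Low 1). Against 9 higher, it was 4 with arrays centred on their medians, 4 with the stricter filter, 0 with the digit block, 60 with levels taken off, and 4 (without High 1) to 19 (without High 3) with a line left out. The median of -0.071 was -0.122 with the stricter filter, -0.046 with none and -0.100 to -0.055 with a line left out. With levels taken off, which draws members towards the other chromosomes by construction, it was -0.0046. The level of High 4 (-0.022) was -0.0020 with quantile normalization repeated and 0.0019 with the brightness trend off. Positions beyond 0.15 (20) numbered 93 and 0 with windows of 25 and 75, 365 and 0 at thresholds of 0.1 and 0.2, 76 over passing members and 7 with the trend off. The causes were not tested beyond what each setting leaves out.

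Of the named genes' results under alternatives, 739 kept their direction and side of the threshold and 13 changed sign. With the digit block these were Hhip (-0.037), Irf8 (-0.0052) and Sorbs2 (1.02). With a line left out, Ces2g ranged from -0.46 to 0.43 (without Low 5), Sorbs2 from -0.38 to 0.38 (without Low 2; 0.10 without High 5) and Chrnb3 from -0.054 to 0.049 (without High 3; also above 0 without Low 1, 2 or 3 or High 1). Sorbs2 was 0.035 with array weights, and Chrnb3 0.065 with levels taken off. No member passed the adjusted threshold under any alternative run. No paired analysis was possible because the labels give no replicate numbers shared between the classes.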
